A study of Mus musculus with 45 samples.

Results

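The subject here is one difference between differences, measured at 44 h: how far the effect of the Notch ligand Delta-like 1 on mouse B cells depended on whether the cells had been given LPS or anti-IgM. Follicular B cells were taken from the spleen of B6.Blimp1GFP/+ mice, which carry a GFP reporter allele of Blimp1 (Prdm1), and all groups shared this genotype. The stroma under the culture was either OP9, a line of bone marrow stromal cells, or OP9-DL1, its derivative that displays Delta-like 1 (DL1), and the cells received 10 µg/mL of salmonella LPS or of an anti-IgM F(ab')2 antibody. Viable cells were sorted after culture and their RNA was sequenced. The series holds 45 libraries in 15 groups. The 12 libraries used here form 4 groups of 3: DL1 with LPS, OP9 with LPS, DL1 with anti-IgM and OP9 with anti-IgM, all at 44 h. No label gives the animals' age or sex, or says whether replicates came from separate animals or cultures, so every p-value measures only the spread between these libraries, which may be technical. The sort was for viability and not for B cell identity.

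LPS is a bacterial cell wall component that acts on B cells through Toll-like receptor 4, while anti-IgM cross-links the B cell antigen receptor; both push resting B cells to grow, divide and change their surface. Notch receptors are cut after they bind a ligand such as Delta-like 1, and the freed intracellular part joins the DNA-binding protein RBPJ to switch on target genes. In the spleen, Delta-like 1 acting on Notch2 is known to be needed for marginal zone B cells. The series title names the question as how Notch2 signaling affects responses through Toll-like and B cell receptors.

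For each gene the DL1 effect was the mean log2 level on DL1 minus that on OP9. The interaction was the DL1 effect with LPS minus the DL1 effect with anti-IgM, so a value above 0 means that DL1 raised the gene more, or lowered it less, with LPS. Levels are transcripts per 1e+06 (TPM) divided by a library size factor, written below as scaled TPM, and differences are on the log2(scaled TPM + 1) scale, which understates the change of genes with few transcripts. The text gives differences as log2 values ± their standard error (SE), with 3 libraries in each of the 4 groups. A gene was called when its p-value from limma, adjusted by the Benjamini-Hochberg method over all 12146 genes tested (of 30317 listed), was below 0.05. These 12146 had at least 1 TPM in at least 3 of the 12 libraries.

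Depth ran from 3.56 to 29.1 M reads (M for 1e+06), and the deepest library was replicate 1 of OP9 with anti-IgM. All 7 B cell markers checked were above 1 TPM in every group, and their summed level was 1356 to 1502 TPM in DL1 with LPS, 1733 to 2080 in OP9 with LPS, 2113 to 2232 in DL1 with anti-IgM and 4566 to 4640 in OP9 with anti-IgM. The B cell marker sum was thus highest in OP9 with anti-IgM, with no overlap with another group. Stromal markers (26 genes) summed to 72.3 to 104 TPM, 62.4 to 126, 172 to 352 and 131 to 289 in the same order, with Lum at 0 in all 12 libraries, so they were higher with anti-IgM but overlapped between DL1 and OP9 within each stimulus. Of their 21 tested members 1 was called for the interaction, Timp1, at −2.08, and their median was −0.57. The DL1 effect with anti-IgM was above 0 for 17 of the 21 (1 called higher and 1 lower), with a median of 0.40. With LPS it was above 0 for 9 (1 called lower), with a median of −0.03. T cell markers (10 genes) summed to 50.5 to 67.3 and 63.1 to 78.8 TPM with LPS on DL1 and OP9, and to 334 to 366 and 471 to 497 with anti-IgM, mostly from Lck, with Trac at 0 in every library. Myeloid markers (12 genes) summed to 124 to 147, 130 to 150, 296 to 319 and 338 to 384 TPM in the order first given, mostly from Cst3, with Fcgr1, Elane, S100a8 and S100a9 at 0 in every library. Both sums were higher with anti-IgM without overlap, and within anti-IgM higher on OP9. The part that other cells' RNA played in the results was not tested, and in these bulk samples fewer cells of a type and less RNA per cell cannot be told apart.

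The ligand itself was the check on the labels. Dll1 measured 1.45, 0.591 and 4.46 scaled TPM on DL1 against 0, 0.337 and 0.246 on OP9 with LPS, and 26.1, 6.05 and 9.31 against 0.58, 0.111 and 0.763 with anti-IgM. Every DL1 library was above every OP9 library of its stimulus. The DL1 effect passed the test with anti-IgM (3.10 ± 0.51, adjusted p = 0.0011) and not with LPS (1.23 ± 0.51, adjusted p = 0.25), and the difference between them was not called (−1.88 ± 0.72, adjusted p = 0.12). Follicular B cells are not known as a source of this ligand, and the anti-IgM libraries also held more stromal transcript, as given above; how much stromal RNA bears on Dll1 was not tested.

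DL1 acted differently on many genes in the 2 stimuli. The interaction was called for 1510 genes (12.4%), 527 above 0 (4.34%) and 983 below 0 (8.09%), and 578 of them differed by over 1 on the log2 scale. The DL1 effect alone was called for 416 genes (3.42%) with LPS, 209 higher (1.72%) and 207 lower (1.7%). With anti-IgM it was called for 2866 genes (23.6%), 1725 higher (14.2%) and 1141 lower (9.39%). Counts of list members that rose or fell, given below, are to be read beside these shares, which differ between the stimuli. The split of the called interactions moved with the scaling: on TPM as deposited, which shifts the median gene by 0.13, 641 were above and 494 below 0, and the authors' log2 values gave 644 above and 699 below. For the anti-IgM effect the deposited scale gave 1005 higher and 1875 lower.

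The libraries in the fit moved the count of calls further than any scaling tried. When all 45 libraries of the series entered the fit, 12 interactions were called, and when the 10 libraries above 10000 TPM of Actb, none of them at 44 h, were left out, 243 were called, of which 242 were among the 1510. Every called interaction below other than those 12 was therefore lost in the 45-library fit, while the median of ribosome biogenesis genes was −1.08 there and −1.12 in the fit of the 12 libraries. Those fits also tested more genes. On the 12146 genes of the 44 h fit, tried after seeing these counts, they called 17 and 263 interactions, and the median SE was 0.63 with 45 libraries and 0.45 with 35, against 0.29 with the 12 libraries alone. The 12 genes called with all 45 libraries were Ddit4, Bnip3l, Ccng2, Pnrc1, Endou and Il27 above 0, and Pcp4, Ccl22, Cacybp, Bzw2, Ftsj3 and Gm4956 below 0; Endou, Il27, Cacybp, Bzw2, Ftsj3 and Gm4956 were chosen for naming after these values were seen. Within the 44 h libraries, 644 genes (247 above and 397 below 0) were called in every alternative tried. A gene left untested by an alternative counts there as not called. Of the 1510 genes, 1438 were tested with the filter at 5 TPM and 1499 without antibody genes. Leaving out any 1 library gave 1042 to 1358 calls.

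Most called interactions came with an anti-IgM effect and no called LPS effect: 335 of the 527 above 0 and 857 of the 983 below 0. The arms were called in opposite directions for 53 genes, only the LPS effect for 112 (71 above and 41 below 0), both effects in the same direction for 24 (18 and 6), and neither for 129 (68 and 61). Across all 12146 genes the arms were nearly unrelated (Pearson r = 0.098, Spearman rho = 0.089; genes are not independent replicates).

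**Figure D1:**
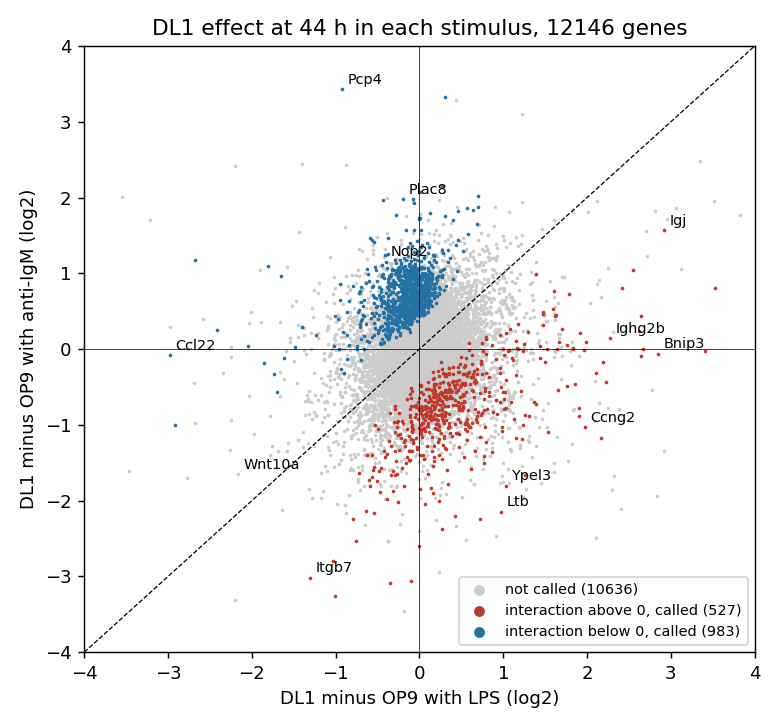
DL1 effect with LPS (horizontal axis, log2) against DL1 effect with anti-IgM (vertical axis, log2) at 44 h, 1 point per tested gene, with called interactions in red (above 0) and blue (below 0); the dashed line marks equal effects, and 2 genes lie outside the axes. The 983 blue genes form a cloud above 0 on the anti-IgM axis near 0 on the LPS axis, while the 527 red genes spread both downward and to the right.

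Read the other way, the distance between LPS and anti-IgM cultures was smaller on DL1 than on OP9. The median absolute gap between stimuli was 0.51 on OP9 and 0.36 on DL1 over all genes, and it was smaller on DL1 for 61.7% of them. Among the 983 genes below 0 this held for 88.9%: they stood a median of 0.97 higher with LPS than with anti-IgM on OP9, and 0.16 on DL1. Among the 527 above 0 it held for 66.8%, nearer the share of all genes. Their median absolute gap was 0.97 on OP9 and 0.60 on DL1. In 816 of the 983 (83.0%) the OP9 anti-IgM group was the one farthest from the other 3, below them, against 23.9% of all genes. For the 527 above 0 it was farthest and above the others in 291 (55.2%), against 22.2% of all genes. These shares use the same libraries as the calls and are given as a description. They were taken on the scaled values alone, and the size factors differed by group. Those ran from 1.13 to 1.18 in OP9 with anti-IgM and 1.01 to 1.02 in DL1 with anti-IgM. With LPS they ran from 0.88 to 1.00 on OP9 and 0.88 to 0.93 on DL1. How far the gaps and shares move with the scaling was not tested.

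Genes for growth and division made up the clearest block below 0. They were low in B cells given anti-IgM on OP9, rose on DL1 toward the level of the LPS cultures, and were mostly not called with LPS. Ribosome biogenesis genes, which make and assemble ribosomal RNA in the nucleolus, were called below 0 in 29 of 30 members (8.09% of all genes were) with a median interaction of −1.12; the median DL1 effect was 0.96 with anti-IgM, where 29 rose, and −0.18 with LPS, where 1 fell. Over all genes each of these medians was 0.00, a value that the size factors set near 0. On deposited TPM the medians of all genes were 0.13 for the interaction, −0.04 with LPS and −0.16 with anti-IgM. On that scale the median interaction of ribosome biogenesis genes was −0.98. Nop58, a core protein of small nucleolar RNA particles, measured 617, 543 and 599.9 scaled TPM on DL1 and 607, 645 and 649 on OP9 with LPS, and 522, 562 and 493 on DL1 and 246, 228 and 245 on OP9 with anti-IgM. The OP9 anti-IgM libraries sat apart from all others, at 228 to 246 scaled TPM. The interaction was −1.24 ± 0.12 (adjusted p = 2.4e-04), from effects of −0.11 ± 0.08 with LPS and 1.13 ± 0.08 with anti-IgM. Npm1, the abundant nucleolar protein nucleophosmin, showed the same layout, with 1529, 1516 and 1504 on DL1 against 637, 611 and 694 on OP9 with anti-IgM, and 2269.6, 1769.7 and 2422 against 1756, 1872 and 2047 with LPS. Its interaction was −1.05 ± 0.16 (adjusted p = 0.0022). Nop2, an RNA methyltransferase of the nucleolus, moved in both arms, falling by 0.40 with LPS (adjusted p = 0.04) and rising by 1.15 ± 0.10 with anti-IgM.

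Myc, the transcription factor known to drive ribosome production in activated B cells, also moved in opposite directions. It measured 204, 189 and 206 on DL1 and 272, 249.7 and 281 on OP9 with LPS, and 189.9, 182 and 195 and 129, 139 and 139 with anti-IgM. On OP9 the stimuli were far apart, and on DL1 all 6 libraries lay between 182 and 206 scaled TPM. Myc fell with LPS (−0.42 ± 0.08, adjusted p = 0.012) and rose with anti-IgM (0.47 ± 0.08, adjusted p = 0.0012), with an interaction of −0.89 ± 0.11 (adjusted p = 6.3e-04).

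The machinery that makes and clears protein followed. Ribosomal proteins of the cytosol were called below 0 in 11 of 30 and had a median of −0.62, all 30 being below 0. Cytosolic tRNA synthetases, which load amino acids onto tRNA, were called below 0 in 9 of 20 with a median of −0.51; with anti-IgM 18 rose and with LPS 2. Hars, which loads histidine, differed by −0.68 ± 0.10 (adjusted p = 0.0016). Proteasome subunits were called below 0 in 21 of 30 with a median of −0.55, and 29 rose with anti-IgM while limma called none with LPS, where 2 had an unadjusted p below 0.05, both higher. Psmd7, a subunit of the regulatory cap, measured 447, 449 and 428 and 464, 446 and 466 on DL1 and OP9 with LPS, and 319, 327 and 333 and 163, 166 and 181 with anti-IgM. The groups with LPS overlapped, and those with anti-IgM were 1.92-fold apart on the scale of group means. Psmc5, an ATPase of that cap, had an interaction of −0.76 ± 0.11. The counts of these 3 groups moved with the scaling, and so did those of all genes, of which 4.07% were called below 0 on deposited TPM and 5.67% under quantile normalization. On those scales 5 and 5 ribosomal proteins, 3 and 6 tRNA synthetases, and 8 and 7 proteasome subunits were called below 0. Their medians were −0.48 and −0.39 for ribosomal proteins, −0.37 and −0.40 for synthetases, and −0.40 and −0.29 for the proteasome.

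DNA replication genes were called below 0 in 19 of 30, with a median of −0.59, from a median effect of −0.25 with LPS and 0.37 with anti-IgM. On deposited TPM 6 of the 30 were called below 0 and under quantile normalization 9, with medians of −0.45 and −0.38. Rrm2, the subunit of ribonucleotide reductase that limits nucleotide supply, measured 707, 715 and 653 on DL1 and 794, 800.4 and 877 on OP9 with LPS, and 524, 518 and 531 and 295, 302 and 335 with anti-IgM. The pairs differed in direction without overlap, but only the anti-IgM effect passed (0.76 ± 0.08, adjusted p = 8.6e-05; with LPS −0.25 ± 0.08, adjusted p = 0.13). Mcm10, which helps to activate the replicative helicase, had an interaction of −0.91 ± 0.14. Genes of mitosis were called below 0 in 5 of 28 and above 0 in 1, with a median of −0.36, so their share was nearer the background of 8.09%; on deposited TPM and under quantile normalization 1 was called below 0. Among them Aurka, a spindle kinase, differed by −0.74 ± 0.15 and Ccnb1, cyclin B1, by −0.65 ± 0.16. Of G1 cyclins and their partners 4 of 11 were called below 0 and 1 above, and Cdk4, the kinase partner of the D cyclins, measured 611, 625 and 605 in OP9 with anti-IgM against 950.2 to 1166 in the other 9 libraries (−0.79 ± 0.10, adjusted p = 7.7e-04); under quantile normalization its interaction was −0.50 and not called.

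**Figure D2:**
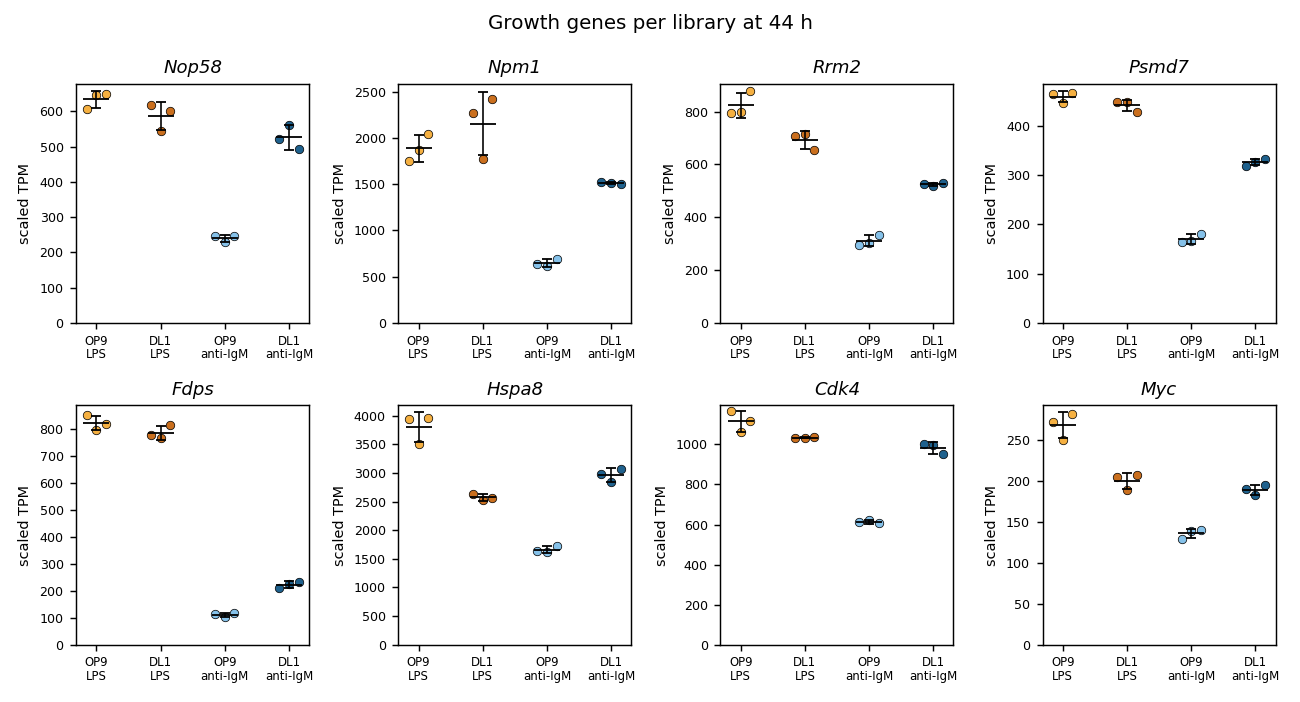
Scaled TPM (vertical axes, each from 0) of 8 growth genes in the 12 libraries at 44 h, 1 point per library, with the group mean as a bar and the SD (n = 3) as whiskers. In each panel the 3 OP9 anti-IgM libraries are the lowest, and the 3 on DL1 with anti-IgM lie above them; the highest panel values are those of Hspa8, up to 3962 scaled TPM.

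Lipid and mitochondrial genes leaned the same way. Cholesterol synthesis enzymes were called below 0 in 13 of 24, with a median of −0.79 (8 on deposited TPM, with a median of −0.65). Fdps, which makes farnesyl diphosphate, measured 209, 225 and 234 on DL1 and 113, 102 and 118 on OP9 with anti-IgM, far below the LPS cultures at 778, 768 and 817 and 851, 798 and 819. The DL1 effect was 1.00 ± 0.08 with anti-IgM and −0.06 ± 0.08 with LPS, and the interaction −1.06 ± 0.12 (adjusted p = 3.7e-04). Acat2, an early enzyme of the same route, gave −1.04 ± 0.12. Nuclear genes of oxidative phosphorylation were called below 0 in 7 of 31, with a median of −0.35, led by Cycs, cytochrome c, at −1.16 ± 0.24 and by Atp5a1, a subunit of ATP synthase, at −0.63 ± 0.12. On deposited TPM 3 of the 31 were called below 0, with a median of −0.21, and under quantile normalization 2, with a median of −0.12, where Atp5a1 was −0.34 and not called. Of the 12 tested genes of the mitochondrial genome limma called none for the interaction (1 had an unadjusted p below 0.05), and their median was 0.02, with a sign that changed in 4 alternatives.

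Chaperones formed a smaller group. Of 10 tested heat and handling stress genes 6 were called below 0, with a median of −0.97 (3 on deposited TPM, with a median of −0.84). Hspa8, the constitutive cytosolic chaperone, measured 2632, 2519.6 and 2569.9 on DL1 and 3935, 3505 and 3962 on OP9 with LPS, and 2987, 2839 and 3072 and 1634, 1614 and 1731 with anti-IgM. It fell with LPS (−0.56 ± 0.08, adjusted p = 0.0027) and rose with anti-IgM (0.84 ± 0.08, adjusted p = 5.5e-05), so that DL1 reversed the order of the stimuli. Hspd1, the mitochondrial chaperonin, had an interaction of −1.34 ± 0.22 with an anti-IgM effect of 1.17 ± 0.16. In the endoplasmic reticulum, 8 of 24 chaperone and unfolded protein response genes were called below 0 and 1 above, and on deposited TPM and under quantile normalization 4 below and 1 above. Hspa5 (BiP) and Pdia6, both folding factors there, differed by −0.67 ± 0.12 and −0.75 ± 0.11, and Hspa5 was −0.41 and not called under quantile normalization. The exception was Herpud1, a stress-induced membrane protein of the same compartment, which rose on DL1 with LPS, from 255, 213 and 209 to 434, 690.3 and 386 scaled TPM, and stayed within 220.5 to 272 in all 6 anti-IgM libraries (1.25 ± 0.25, adjusted p = 0.0081).

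Genes that mark resting or non-dividing cells stood on the other side. Among 17 tested cell cycle inhibitors and quiescence genes limma called 9 above 0 (4.34% of all genes were) and none below, where 1 had an unadjusted p below 0.05, and their median was 1.23. With anti-IgM 10 fell and 1 rose; with LPS 3 rose. Ccng2, a cyclin G known to restrain the cycle, measured 33.9, 39.5 and 32.4 on DL1 and 7.45, 7.35 and 10.1 on OP9 with LPS, and 52.9, 47.9 and 42.5 on DL1 and 91.9, 106 and 96.7 on OP9 with anti-IgM. DL1 raised it 4.24-fold in one stimulus and the level on DL1 was 0.486 of that on OP9 in the other, both called, with an interaction of 3.00 ± 0.20 (adjusted p = 2.4e-05). Ypel3, a small growth-suppressing protein, measured 115, 131 and 119 and 64.3, 57.3 and 54.98 with LPS, and 114, 91.8 and 102 and 366, 387 and 325 with anti-IgM. On OP9 the stimuli lay far apart, and on DL1 the anti-IgM libraries lay just under the LPS libraries. Its interaction of 2.84 ± 0.15 had an adjusted p of 6.7e-06, the smallest among the genes named here. Txnip, which curbs glucose uptake, rose with LPS (1.13 ± 0.18) and fell with anti-IgM (−0.92 ± 0.18). Cdkn2d, the cyclin-dependent kinase inhibitor p19, and Btg2, an antiproliferative factor, were called lower with anti-IgM (−0.93 ± 0.09 and −1.28 ± 0.10), with interactions of 1.09 and 0.94. With LPS neither was called, and their group means on DL1 were 1.12 and 0.781 of those on OP9. Klf2, a transcription factor of resting lymphocytes, fell with anti-IgM from 5.56, 24.1 and 27.02 to 1.04, 1.04 and 0.827 scaled TPM, but its OP9 replicates were wide apart and its call (adjusted p = 0.029) held in 11 of 22 alternatives. Others among the 12 largest interactions above 0 also fell with anti-IgM: Tsc22d3 (GILZ, a glucocorticoid-induced factor) at 2.96 ± 0.18, the kinase gene Sbk1 at 2.96 ± 0.64 and the nuclear receptor coactivator Pnrc1 at 2.92 ± 0.74, the last called in 13 of 22 alternatives.

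Hypoxia response genes were raised by DL1 in LPS cultures. This programme is run by HIF factors, which are stabilised when oxygen is low and also in some activated immune cells, and which bind DNA at a core of the letters ACGTG, in which the first base may also be G, as in GCGTG. Of 20 tested members limma called 8 above 0 and none below (1 had an unadjusted p below 0.05 there), and 11 rose with LPS, where no member below 0 reached even an unadjusted p of 0.05, while with anti-IgM 3 rose and 3 fell. The medians were 1.05 for the interaction, 1.03 with LPS and 0.01 with anti-IgM. Bnip3, a mitochondrial protein of autophagy and cell death and a textbook HIF target, measured 559, 452 and 570.5 scaled TPM on DL1 and 67.1, 75.4 and 73.5 on OP9 with LPS, and 47.95, 28.6 and 36.1 and 39.2, 55.9 and 25.6 with anti-IgM. The 3 libraries of DL1 with LPS stood alone, and the other 9 were at or under 75.4 scaled TPM. Its interaction was 2.91 ± 0.35 (adjusted p = 5.2e-04), nearly all of it the LPS effect of 2.85 ± 0.25.

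The promoters of 4 called members are shown because they carry these cores. They are the 250 bases before the start of each gene in RefSeq (GRCm38.p6), all on the minus strand and written 5′ to 3′, with every such core, on either strand, in capitals. They lie at chr7:138909507-138909756, chr8:45999851-46000100, chr12:54203875-54204124 and chr10:59951771-59952020.
Bnip3: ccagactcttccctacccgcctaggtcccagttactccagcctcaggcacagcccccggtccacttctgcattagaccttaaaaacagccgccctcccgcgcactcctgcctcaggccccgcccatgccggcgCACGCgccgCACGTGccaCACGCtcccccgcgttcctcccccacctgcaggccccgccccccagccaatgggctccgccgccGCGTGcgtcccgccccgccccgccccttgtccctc
Ankrd37: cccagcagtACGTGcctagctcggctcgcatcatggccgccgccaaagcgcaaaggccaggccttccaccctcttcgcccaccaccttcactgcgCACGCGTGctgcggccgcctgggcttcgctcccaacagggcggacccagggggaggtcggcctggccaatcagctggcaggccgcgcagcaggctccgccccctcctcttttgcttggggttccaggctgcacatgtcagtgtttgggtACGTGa
Egln3: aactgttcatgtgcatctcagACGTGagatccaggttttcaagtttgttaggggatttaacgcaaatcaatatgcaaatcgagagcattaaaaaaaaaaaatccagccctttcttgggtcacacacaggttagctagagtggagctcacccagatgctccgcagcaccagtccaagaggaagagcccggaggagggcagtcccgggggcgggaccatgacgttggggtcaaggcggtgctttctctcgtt
Ddit4: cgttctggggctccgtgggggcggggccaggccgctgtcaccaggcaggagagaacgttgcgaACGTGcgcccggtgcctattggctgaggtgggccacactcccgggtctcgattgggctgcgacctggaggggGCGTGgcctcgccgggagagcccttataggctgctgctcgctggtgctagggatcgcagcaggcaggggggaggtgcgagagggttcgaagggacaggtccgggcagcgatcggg
Bnip3 holds 5 matches, a pair of which overlap in a CACGTG, Ankrd37 holds 4, Ddit4 2 and Egln3 1. Of the 8 called members 6 were in the promoter table and all 6 held a core, as did 16 of the 17 tested members found there. The cores are short and common: 38.6% of all 32851 promoters and 62.7% of the 8368 tested genes with one held at least 1. A match is a description of the letters and not a binding site.

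The other called members of this group differed in what they did with anti-IgM. Ankrd37, an ankyrin repeat protein, Egln3, one of the oxygen-sensing prolyl hydroxylases, Ak4, a mitochondrial adenylate kinase, and P4ha1, a collagen prolyl hydroxylase, rose with LPS and were not called with anti-IgM. Egln3 went from 1.48, 0.717 and 0.818 on OP9 to 12.9, 10.3 and 11.1 on DL1 with LPS, and was under 1 scaled TPM in all 6 anti-IgM libraries; its interaction was 2.20 ± 0.37 (adjusted p = 0.0032). Interactions of the others were 1.70, 2.38 and 0.85, and P4ha1 was called in 9 of 22 alternatives. With a pseudocount of 0.1 the interactions of Egln3 and Ak4 were 2.02 and 2.66 and not called. In the authors' log2 table they were 1.70 and 2.40 and not called. On the scale of group means Egln3 was 11.4-fold higher on DL1 with LPS and 8.01-fold with anti-IgM. For Ak4 these were 12.6-fold and 3.79-fold. Ddit4 (REDD1), an inhibitor of mTORC1, and Bnip3l, a relative of Bnip3 known for clearing mitochondria, moved in opposite directions. Ddit4 measured 26.5, 24.8 and 27.002 on DL1 and 5.18, 5.58 and 4.47 on OP9 with LPS, and 1.54, 5.54 and 3.02 and 8.8999, 8.26 and 7.29 with anti-IgM, so it rose in one stimulus and fell in the other (3.33 ± 0.38, adjusted p = 4.2e-04). Bnip3l measured 431, 371 and 445 and 104, 93.3 and 138 with LPS, and 95.9, 136 and 118 and 207, 222 and 211 with anti-IgM (2.78 ± 0.22, adjusted p = 1.0e-04). Ero1l, an oxidase of the endoplasmic reticulum, rose in both, more with LPS (1.48 ± 0.11 against 0.49 ± 0.11). Mgarp, a mitochondrial transport protein outside the list, had the largest interaction above 0 of the genes named by size (3.43 ± 0.36, adjusted p = 3.1e-04). It measured 14.7, 13.4 and 20.8 on DL1 with LPS and under 1 scaled TPM in each of the other 9 libraries. Mgarp and Ak4 passed the filter only through DL1 with LPS, the group where they were high. In the authors' log2 table the Mgarp interaction was 3.69 and not called.

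Glycolysis was less divided. Of 23 genes 15 rose with LPS and 14 with anti-IgM (1 fell), with median DL1 effects of 0.99 and 0.79, and 5 were called above and 1 below 0 for the interaction. Pgk1, phosphoglycerate kinase, measured 1244, 1149 and 1300.2 on DL1 and 483, 441 and 481 on OP9 with LPS, and 436, 411 and 416 and 210.0, 211 and 215 with anti-IgM. It rose in both, 2.63-fold with LPS and 1.99-fold with anti-IgM, and the interaction was small (0.40 ± 0.11, adjusted p = 0.034). Among members with larger interactions, Slc16a3 (MCT4), the lactate exporter, rose from 7.92, 10.96 and 13.4 to 144, 114 and 139.7 with LPS. It lay under 5 scaled TPM in all anti-IgM libraries (2.72 ± 0.38). On the scale of group means Slc16a3 was 12.3-fold higher on DL1 with LPS and 2.52-fold with anti-IgM. Aldoc, an aldolase, rose with LPS and fell with anti-IgM (1.90 ± 0.18 and −0.78 ± 0.18).

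**Figure D3:**
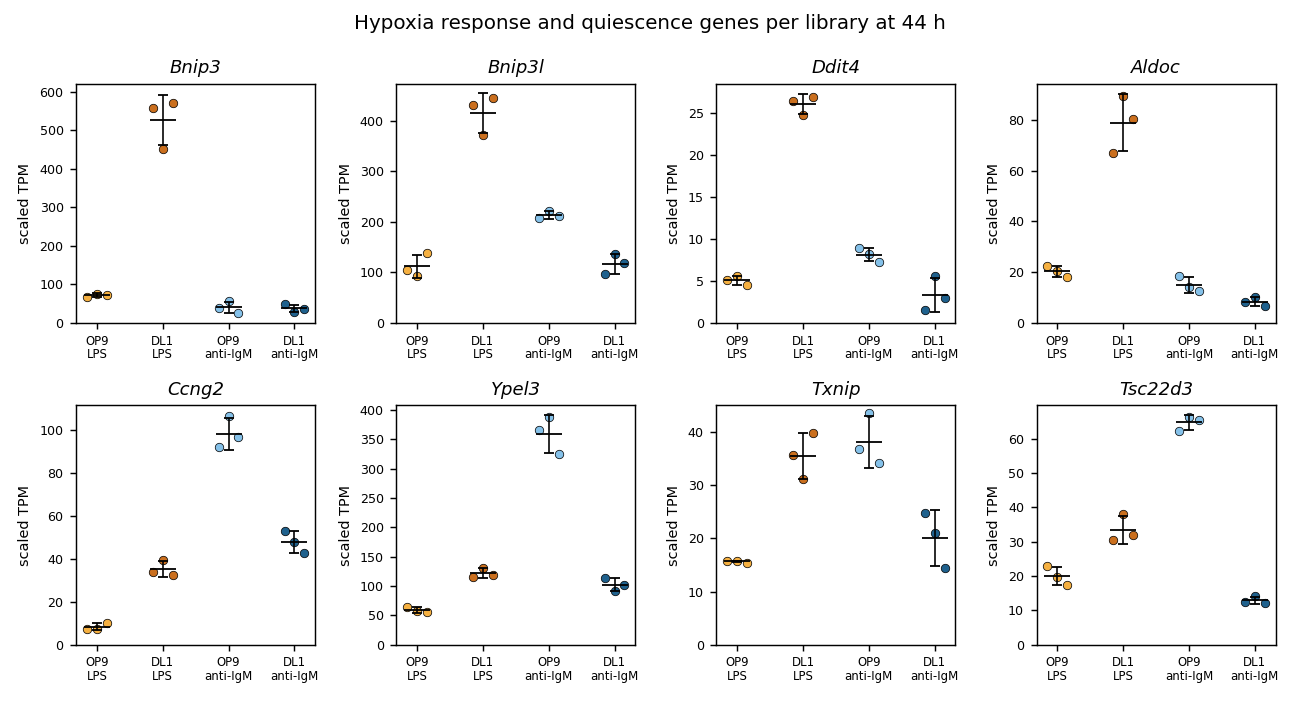
Scaled TPM (vertical axes, each from 0) of 8 hypoxia response and quiescence genes in the 12 libraries at 44 h, 1 point per library, with group mean and SD (n = 3). Bnip3 and Aldoc are high in DL1 with LPS, while Ccng2, Ypel3 and Tsc22d3 are highest in OP9 with anti-IgM and higher on DL1 than on OP9 with LPS.

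ATF4 and mTORC1 targets, a mixed set of amino acid and stress genes, mostly rose on DL1 in both stimuli. Of 24 tested, limma called 11 higher with LPS and 14 with anti-IgM, with medians of 0.66 and 0.70. No member below 0 reached an unadjusted p of 0.05 in either stimulus. For the interaction they split evenly, with 5 called above and 5 below 0 and a median of −0.12 that turned to 0.03 on deposited TPM. Those above 0 rose with LPS: Sesn2, a stress sensor that restrains mTORC1, at 1.44 ± 0.15 with LPS against 0.05 ± 0.15 with anti-IgM, and Ddit3 (CHOP), a stress transcription factor, at 1.49 ± 0.21 against −0.17 ± 0.21. Those below 0 included biosynthetic enzymes that rose with anti-IgM: Asns, asparagine synthetase, went from 5.48, 4.97 and 4.79 on OP9 to 31.6, 16.98 and 24.6 on DL1 (2.02 ± 0.20), Shmt2 of serine and folate metabolism changed by 1.24 ± 0.09, and Phgdh of serine synthesis by 0.83 ± 0.10. Their interactions were −1.32, −1.07 and −0.75, the last not called under quantile normalization.

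Genes of the resting follicular B cell were lowered by DL1 mainly in anti-IgM cultures. Of 16 follicular B cell genes 14 fell with anti-IgM and 4 with LPS, and 10 were called above and 1 below 0 for the interaction, with a median of 0.81. The B cell marker sum given above moved the same way. Fcer2a (CD23), the low-affinity IgE receptor of follicular cells, measured 45.6, 33.4 and 52.2 on DL1 and 44.7, 50.4 and 60.3 on OP9 with LPS, and 11.9, 14.7 and 10.7 and 56.5, 49.8 and 52.4 with anti-IgM. On OP9 the stimuli overlapped, and DL1 with anti-IgM was alone at the bottom (1.76 ± 0.25, adjusted p = 0.0012). Satb1, a chromatin organiser, went in opposite directions, from 12.6, 11.3 and 9.15 to 28.8, 42.3 and 31.1 with LPS and from 60.9, 88.9 and 77.5 to 33.01, 31.3 and 39.7 with anti-IgM (2.63 ± 0.26). S1pr4, a receptor for sphingosine 1-phosphate, fell with anti-IgM (−1.84 ± 0.21) against 0.00 ± 0.21 with LPS. The member below 0 was Ms4a4c, a CD20-family membrane protein, which fell in both stimuli and further with LPS: 29.9, 40.5 and 52.01 on DL1 against 267, 311 and 348 on OP9 with LPS, and 171, 216 and 170.3 against 405, 351 and 364 with anti-IgM (−1.91 ± 0.25, adjusted p = 8.3e-04).

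Of 24 B cell identity genes limma called 7 above 0 and none below (2 had an unadjusted p below 0.05 there), with a median of 0.32; 18 fell with anti-IgM and 5 with LPS. Ets1, a transcription factor that restrains plasma cell formation, rose with LPS (0.98 ± 0.22) and fell with anti-IgM (−1.03 ± 0.22), for an interaction of 2.02 ± 0.31. Cd79a, a signalling chain of the antigen receptor, measured 804, 849 and 868 on DL1 against 1593, 1619.9 and 1719 on OP9 with anti-IgM (−0.97 ± 0.08), and its LPS effect of −0.30 ± 0.08 was not called (adjusted p = 0.059). Fcrla, an intracellular Fc receptor-like protein, gave 1.00 ± 0.15. The regulators Pax5, Bach2 and Bcl6, which hold the B cell programme or the germinal centre programme, fell with anti-IgM (−0.75 ± 0.21, −0.53 ± 0.13 and −1.43 ± 0.26) and were not called with LPS (0.03, −0.24 and −0.53), yet none of their interactions was called (0.78, 0.29 and 0.91, adjusted p = 0.11, 0.36 and 0.14). Components of B cell receptor signalling were called above 0 in 2 of 25, with 11 falling with anti-IgM and a median of 0.22 (5 above under quantile normalization, with a median of 0.46); the adaptor Dok3 was one, at 1.14 ± 0.27.

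Antigen presentation through MHC class II had the same form. Of 12 tested genes 6 were called above 0 and 7 fell with anti-IgM, while limma called none with LPS (2 had an unadjusted p below 0.05, both lower), and the median was 0.76. H2-Ob, a chain of the H2-O regulator of peptide loading, measured 35.01, 30.6 and 36.7 and 39.8, 30.8 and 37.6 on DL1 and OP9 with LPS, and 80.3, 101 and 93.1 and 216, 216 and 216 with anti-IgM. The LPS groups overlapped and the anti-IgM groups were far apart, for an interaction of 1.16 ± 0.17 (adjusted p = 0.0015). Cd74, the invariant chain, was the most abundant, at 15791, 13646 and 13705 on OP9 and 7253, 8041 and 7507 on DL1 with anti-IgM, against 5213 to 5879 in the 6 LPS libraries (0.90 ± 0.13); under quantile normalization, which fits the top values of all libraries to each other, its interaction was 0.07 and not called. MHC class I genes were called above 0 in 2 of 13 and below in 1, with a median of 0.05 whose sign changed in 4 alternatives.

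Receptors that place or restrain B cells also leaned above 0. Homing and adhesion genes were called above 0 in 7 of 19 and below in 2, with a median of 0.60. Itgb7, the beta-7 integrin chain for gut homing, fell in both stimuli and further with anti-IgM: 3.27, 2.46 and 2.81 on DL1 against 33.8, 29.02 and 27.6 on OP9 with anti-IgM, and 0.722, 1.22 and 2.08 against 6.48, 3.5002 and 4.25 with LPS (1.71 ± 0.35, adjusted p = 0.0086). Ccr6, a chemokine receptor, rose with LPS (0.84 ± 0.17) and fell with anti-IgM (−0.61 ± 0.17). Inhibitory receptors were called above 0 in 4 of 17, with a median of 0.42. Siglecg, a sialic acid receptor, fell in both (−0.56 ± 0.13 with LPS and −1.59 ± 0.13 with anti-IgM), and Fcgr2b, the inhibitory IgG receptor, fell with anti-IgM (−0.73 ± 0.13) against 0.21 ± 0.13 with LPS. Outside these lists Il1r2, the decoy receptor for interleukin 1, rose with LPS from 1.85, 1.17 and 1.69 to 18.3, 11.998 and 15.1 scaled TPM and lay between 6.85 and 9.17 in all anti-IgM libraries (2.73 ± 0.27, adjusted p = 2.4e-04).

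Secreted signals moved gene by gene, with 3 of 16 cytokine and chemokine genes called above and 3 below 0. Ccl22, a chemokine that draws CCR4-bearing T cells, measured 5.58, 3.64 and 5.38 on DL1 and 40.5, 40.7 and 54.1 on OP9 with LPS, and 6.38, 5.56 and 6.42 and 6.17, 5.79 and 7.69 with anti-IgM. OP9 with LPS stood alone, and DL1 with LPS lay near the anti-IgM cultures (−2.90 ± 0.26, adjusted p = 2.4e-04). Ccl3 and Ccl4, chemokines that recruit T cells and monocytes, rose with anti-IgM: Ccl4 measured 273, 234 and 203 on DL1 and 61.8, 58.2 and 58.4 on OP9, and under 5 scaled TPM in all LPS libraries (−2.40 ± 0.39), and Ccl3 had an interaction of −2.06 ± 0.34. Ltb, lymphotoxin beta, which organises lymphoid tissue, measured 167, 219.7 and 152 and 102, 89.5 and 80.2 with LPS, and 17.7, 8.59 and 10.6 and 58.9, 53.6 and 54.1 with anti-IgM. It rose with LPS (0.97 ± 0.22, adjusted p = 0.03) and fell with anti-IgM (−2.14 ± 0.22, adjusted p = 6.4e-05), for an interaction of 3.11 ± 0.31. Outside the list Il27, an interleukin subunit, rose with LPS (2.67 ± 0.22) and was listed at 0 in all 6 anti-IgM libraries. It passed the filter only through DL1 with LPS, where it was high. In the authors' log2 table the Il27 interaction was 3.52 and not called. Ccl2 and Ccl7, monocyte chemokines that stromal cells also make, had interactions of −2.90 ± 0.66 and −2.62 ± 0.77 with neither arm called, and Ccl7 was called in 5 of 22 alternatives; the stromal marker sums stand above.

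NF-kB targets and feedback genes were called above 0 in 3 of 23 and below in 6, with a median of 0.00 whose sign changed in 12 alternatives. Bcl2a1d, a survival relative of Bcl2, fell with LPS (−0.69 ± 0.17) and had an interaction of −1.07 ± 0.24 (−0.76 and not called under quantile normalization). Early genes of receptor signalling were called above 0 in 1 of 19 and below in 2 (3 and 1 in the authors' log2 table); Nr4a1, a nuclear receptor known to report antigen receptor signalling, fell with LPS (−0.74 ± 0.11) against 0.05 ± 0.11 with anti-IgM, while Ier2, an immediate early gene, gave 0.46 ± 0.11. Bcl2 itself, the main survival factor of resting B cells, fell with anti-IgM (−0.88 ± 0.11) and had an interaction of 1.05 ± 0.16. Toll-like receptors and their partners held no interaction called by limma among 18 tested, and none with an unadjusted p below 0.05; their median was 0.15.

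**Figure D4:**
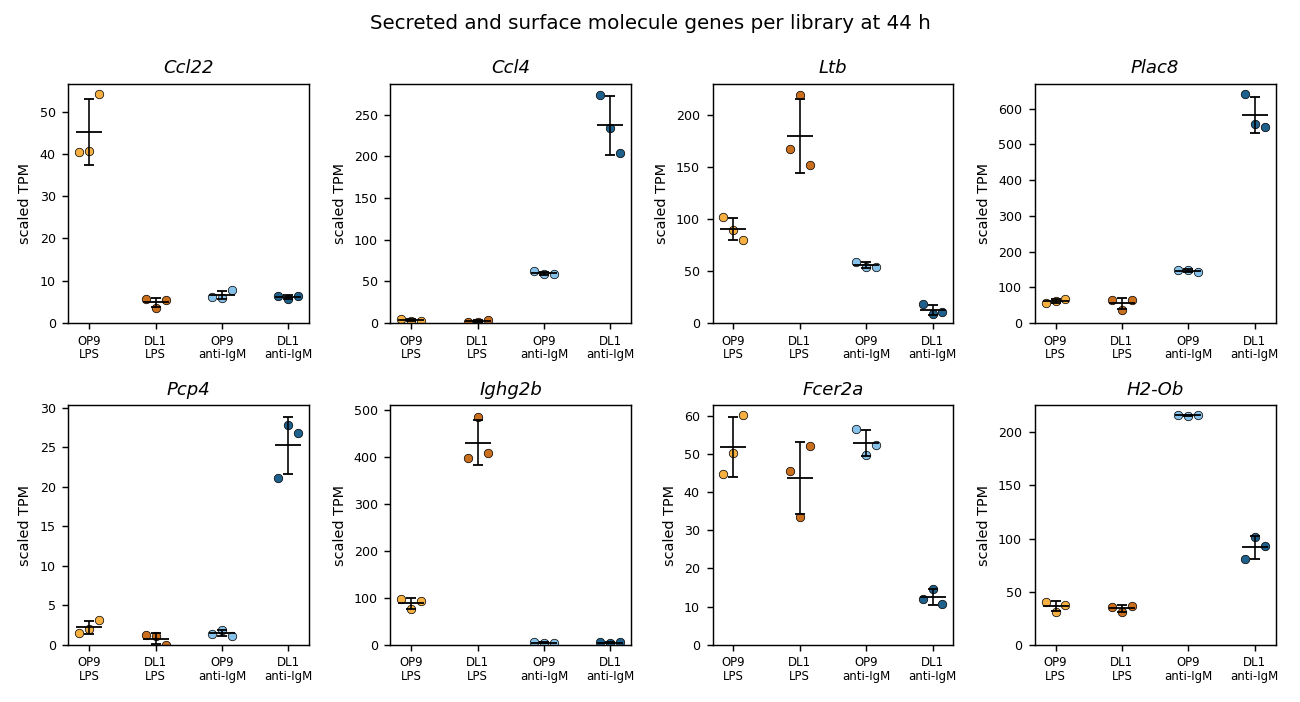
Scaled TPM (vertical axes, each from 0) of 8 genes for secreted or membrane proteins or other markers in the 12 libraries at 44 h, 1 point per library, with group mean and SD (n = 3). Ccl22 is high in OP9 with LPS, Ighg2b in DL1 with LPS, Ccl4, Plac8 and Pcp4 in DL1 with anti-IgM, and H2-Ob in OP9 with anti-IgM; Fcer2a is low in DL1 with anti-IgM.

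Marginal zone B cells are the fate that Notch2 is known to support, and their genes did not move as a block: 2 of 16 were called above and 3 below 0, with a median of −0.23. With anti-IgM 6 rose and 4 fell (14.2% and 9.39% of all genes did), and with LPS 1 rose (1.72%). Plac8, a small cysteine-rich protein, measured 640.2, 556 and 549 on DL1 and 147, 149 and 142 on OP9 with anti-IgM, and 63.1, 37.1 and 64.2 and 55.4, 61.7 and 67.04 with LPS. DL1 raised it 3.98-fold with anti-IgM, and the LPS groups overlapped (−2.18 ± 0.25, adjusted p = 4.2e-04). Cd36, a scavenger receptor, and outside the list Alpl, alkaline phosphatase, also rose with anti-IgM (1.92 ± 0.22 and 2.15 ± 0.13), with interactions of −1.99 ± 0.31 and −1.88 ± 0.19. Cd1d1, which presents lipids to NKT cells, and Tm6sf1, a membrane protein, went the other way, falling with anti-IgM (−1.05 ± 0.23 and −0.81 ± 0.12), with interactions of 1.25 and 1.31. Of the genes named by size below 0, Pcp4, a small calmodulin-binding protein, had the largest interaction (−4.35 ± 0.44, adjusted p = 2.5e-04): it measured 21.2, 27.9 and 26.8 on DL1 with anti-IgM and at most 3.15 scaled TPM in the other 9 libraries. Lpar3, a lysophosphatidic acid receptor, rose with anti-IgM from 3.23, 4.61 and 3.21 to 17.3, 17.1 and 17.5 and was listed at 0 in 5 of 6 LPS libraries, and Comtd1, a methyltransferase-like protein, gave −1.96 ± 0.21.

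Of 22 plasma cell genes 5 rose with LPS (1.72% of all genes did). With anti-IgM 5 rose and 2 fell (14.2% and 9.39% of all genes did). For the interaction 2 were called above and 2 below 0, and members ran from −0.96 to 1.97 with a median of 0.16. Prdm1, the regulator of plasma cell fate and the reporter locus of these mice, measured 6.02, 3.46 and 3.65 on DL1 and 2.16, 1.499 and 1.93 on OP9 with LPS, and 1.61, 0.79 and 0.836 and 1.81, 1.07 and 1.42 with anti-IgM. The LPS groups did not overlap, but neither that effect (0.88 ± 0.25, adjusted p = 0.085) nor the interaction (1.12 ± 0.35, adjusted p = 0.061) was called; the interaction was called in the authors' log2 table, at 1.72. Igj, the joining chain of secreted IgM and IgA, rose in both, from 3.26, 1.399 and 3.28 to 24.4, 25.3 and 27.4 with LPS and from 6.74, 4.86 and 2.76 to 14.97, 14.01 and 17.7 with anti-IgM. Its interaction of 1.35 ± 0.39 lay close to the threshold (adjusted p = 0.044) and was called in 5 of the 21 alternatives that tested it. Xbp1, which expands the secretory apparatus, rose in both (0.50 ± 0.08 and 0.71 ± 0.08, interaction −0.22 ± 0.11, adjusted p = 0.22), and Irf4 was called in neither (0.24 ± 0.13 and 0.19 ± 0.13). Zbtb20, a factor of long-lived plasma cells, fell with anti-IgM (−1.83 ± 0.16) with an interaction of 1.97 ± 0.22, while Mzb1 and Derl3, helpers of antibody folding and quality control, rose with anti-IgM (0.79 ± 0.11 and 1.65 ± 0.20), Derl3 being called for the interaction in 7 of 22 alternatives (−0.96, against −0.73 for Mzb1, which was not called under quantile normalization).

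Of 9 tested antibody constant regions 1 was called above and 1 below 0, with a median of −0.04 (3 above and 1 below on deposited TPM, with a median of 0.11). Ighg2b, the IgG2b heavy chain, measured 396, 485 and 408 scaled TPM on DL1 and 96.2, 75.2 and 92.4 on OP9 with LPS, and under 6 in all 6 anti-IgM libraries. DL1 raised it 4.89-fold with LPS, and the interaction was 2.14 ± 0.26 (adjusted p = 5.2e-04). Ighg1, the IgG1 heavy chain, went the other way at a low level, from 9.23, 7.54 and 8.26 to 20.2, 19.7 and 17.6 with anti-IgM and 7.71, 8.17 and 6.06 to 6.72, 3.82 and 4.92 with LPS (−1.56 ± 0.27, adjusted p = 0.0034). These genes are alike in sequence, and how short reads were divided among them is not given in the sources used here. Of 19 class switch enzymes and repair factors 2 were called below 0, among them Apex1, a base excision endonuclease, at −1.23 ± 0.14.

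Notch genes themselves gave little. None of 24 receptors and machinery genes was called for the interaction by limma (4 had an unadjusted p below 0.05), their median was 0.09, and they ranged from −0.54 to 0.72. Notch2, the main receptor of mature B cells, measured 4.42, 5.87 and 4.21 on DL1 and 4.81, 5.45 and 6.17 on OP9 with LPS, and 2.196, 2.199 and 2.49 and 4.41, 4.43 and 4.11 with anti-IgM. It fell with anti-IgM (−0.69 ± 0.17, adjusted p = 0.012) against −0.16 ± 0.17 with LPS, and the difference of 0.54 ± 0.24 was not called (adjusted p = 0.17); in the authors' log2 table it was 0.82 and called (adjusted p = 0.034). Notch1 and Rbpj, the partner of the cleaved receptor, had interactions of −0.18 ± 0.47 and 0.11 ± 0.38, neither called. Of 9 tested Notch targets 2 were called above 0, Trib2 and Cd1d1, and the median was 0.54. The DL1 effect with anti-IgM was below 0 for 8 of the 9 (3 called lower), with a median of −0.37. With LPS it was above 0 for 6 (1 called higher), with a median of 0.20. Trib2, a pseudokinase, rose from 4.74, 3.901 and 5.24 to 14.2, 11.6 and 10.9 with LPS and fell from 8.06, 9.91 and 6.92 to 3.55, 3.69 and 3.55 with anti-IgM (2.24 ± 0.24, adjusted p = 3.7e-04). Hes1, the classical repressor target, measured 2.43, 5.18 and 1.04 on DL1 and 0, 0.258 and 0 on OP9 with LPS, and 2.57, 1.36 and 3.31 and 0.637, 4.72 and 3.69 with anti-IgM. The LPS groups did not overlap and the anti-IgM groups did, but at these low levels neither the LPS effect (adjusted p = 0.091) nor the interaction of 1.79 ± 0.69 (adjusted p = 0.12) was called. With less weight on the pseudocount the Hes1 interaction was larger and called, at 4.02 with a pseudocount of 0.1 and 4.54 in the authors' log2 table. Dtx1, a ubiquitin ligase and Notch target in B cells, was at 17.8 to 61.2 scaled TPM in all 12 libraries with overlapping groups (0.52 ± 0.45, adjusted p = 0.51), and Nrarp, a feedback inhibitor, lay at or under 2.46 (0.84 ± 0.53).

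**Figure D5:**
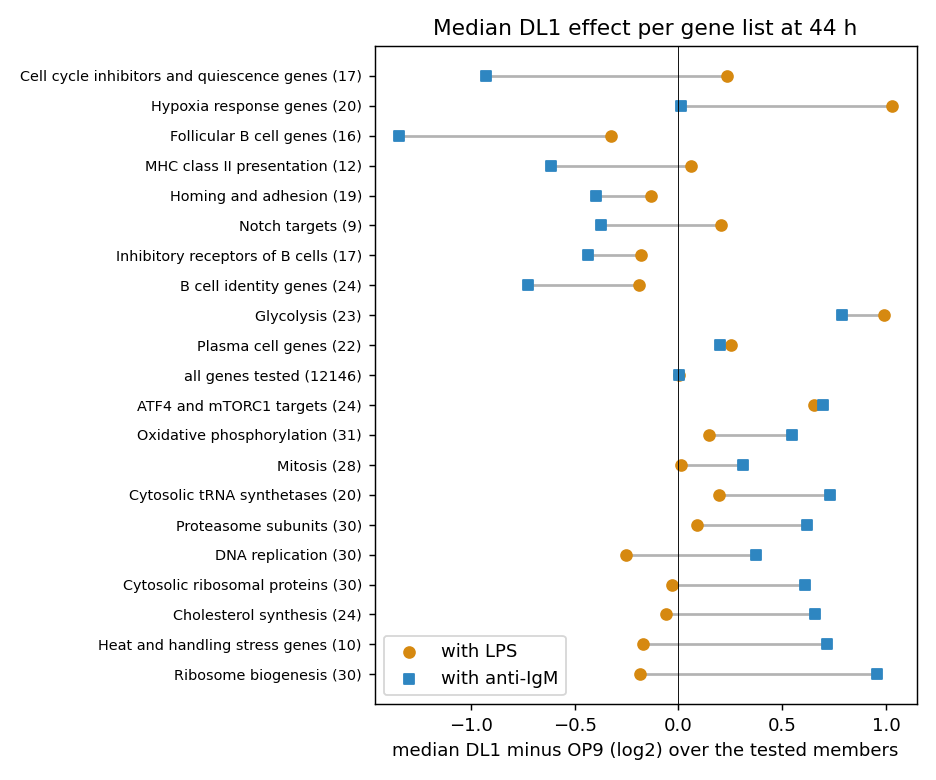
Median DL1 effect (horizontal axis, log2, DL1 minus OP9) over the tested members of 20 gene lists and of all genes, with LPS (circles) and with anti-IgM (squares); member numbers are in brackets and lists are ordered by their median interaction. Ribosome biogenesis lies at −0.18 with LPS and 0.96 with anti-IgM, hypoxia response genes at 1.03 and 0.01, and all genes at 0.00 in both.

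Some effects of DL1 were shared. DL1 effects were called in both stimuli for 228 genes, which is 54.8% of those called with LPS and 7.96% of those called with anti-IgM; 175 had the same direction, 62 of them higher, and for 151 of the 175 the interaction was not called. Wnt10a, a secreted Wnt ligand, measured 18.1, 20.1 and 17.7 on DL1 and 113, 76.4 and 75.6 on OP9 with LPS, and 27.7, 22.6 and 32.8 and 102, 79.1 and 85.3 with anti-IgM. Ighd, the IgD heavy chain of naive B cells, measured 51.1, 52.3 and 49.4 and 123, 137 and 147 with LPS, and 464, 527 and 467 and 1330.1, 1165 and 1095 with anti-IgM. Both fell without overlap in each stimulus, with DL1 effects for Ighd of −1.39 ± 0.10 with LPS and −1.30 ± 0.10 with anti-IgM, where its level was the higher, and the interactions were −0.51 ± 0.25 and −0.10 ± 0.14 (adjusted p = 0.22 and 0.72). These examples were chosen after their values were seen, and an interaction that missed the threshold does not show that the effects were equal.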

How the data were processed

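RNA was measured in 12 libraries of cultured splenic B cells, sorted for viability, at 44 h. Complementary DNA was made by a SMART-seq method and libraries with Nextera XT, per the labels' protocols, which name HiSeq and NextSeq instruments without saying which library ran on which. The authors deposited TPM per gene symbol and a log2 table of normalized expression; kallisto, limma and the builds GRCm38 and mm10 stand in the submitters' processing notes, and versions are not given in the sources used here. TPM adds to 94.5 to 95.3% of 1e+06 per library, and TPM keeps no depth. Depth was solved from the lowest value of the deposited log2 table, read as counts per 1e+06 with an offset of 0.5 count: the counts so recovered add to the solved total within 0.081%. The number of reads limits the precision of genes with few transcripts.

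TPM was divided by median-ratio size factors (0.878 to 1.18), 1 was added and log2 taken. Genes with at least 1 TPM in at least 3 of the 12 libraries were fitted by group means in limma 3.58.1 (R 4.3.3; trend and robust moderation), with Benjamini-Hochberg adjustment and calls at 0.05. Each comparison was fitted over all 4 groups. Libraries of 1 group correlated at 0.959 to 0.977 and none was a copy of another. Replicate numbers did not pair the libraries (r of deviations from the group means −0.142 to 0.216 over 18 same-number pairs, 2 above 0.1). Alternatives were the scaling, the authors' log2 table, pseudocount, filter, libraries in the fit, a replicate term, antibody genes left out and each library left out. Scripts were tested on simulated data. Named genes were a set of Notch, plasma cell and B cell genes, the 12 largest called interactions in each direction among genes whose mean reached 10 scaled TPM in some group (without V, D and J segments and unnamed models), and called members of the lists described. The comparison, the members and the lists were chosen with earlier results of these data known, so no list is independent evidence. Promoters came from RefSeq. Libraries at 20 and 68 h enter only where named. Some genes the rule names are not reported here.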

Additional observations from a re-analysis of the deposited data

Results flagged for a closer look

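For the genes below the DL1 effect differed between LPS and anti-IgM by the interaction test of limma (adjusted p below 0.05). The values are the interaction, LPS effect minus anti-IgM effect on the log2 scale, and no cause was tested for any of them.

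Above 0, the hypoxia response and glycolysis genes stood at 2.91 for Bnip3, 2.78 for Bnip3l, 3.33 for Ddit4, 2.38 for Ak4, 2.20 for Egln3, 1.70 for Ankrd37, 0.99 for Ero1l, 0.85 for P4ha1, 2.69 for Aldoc, 2.72 for Slc16a3 and 0.40 for Pgk1, and the mitochondrial gene Mgarp at 3.43. Genes of quiescence and growth restraint stood at 3.00 for Ccng2, 2.84 for Ypel3, 2.05 for Txnip, 1.09 for Cdkn2d, 0.94 for Btg2 and 2.73 for Klf2, and the further large values were 2.96 for Tsc22d3, 2.96 for Sbk1, 2.92 for Pnrc1 and 2.13 for Endou. Stress genes that DL1 raised with LPS stood at 1.39 for Sesn2, 1.66 for Ddit3 and 1.25 for Herpud1. B cell and follicular genes stood at 2.63 for Satb1, 1.76 for Fcer2a, 1.85 for S1pr4, 2.02 for Ets1, 1.00 for Fcrla, 0.67 for Cd79a, 1.14 for Dok3 and 1.05 for Bcl2. Presentation, homing and inhibitory receptor genes stood at 1.16 for H2-Ob, 0.90 for Cd74, 1.71 for Itgb7, 1.45 for Ccr6, 1.03 for Siglecg, 0.94 for Fcgr2b and 2.73 for Il1r2. Secreted products stood at 3.11 for Ltb, 2.67 for Il27, 1.35 for Igj and 2.14 for Ighg2b, and the remaining ones at 2.24 for Trib2, 1.25 for Cd1d1, 1.31 for Tm6sf1, 1.97 for Zbtb20 and 0.46 for Ier2.

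Below 0, nucleolar genes stood at −1.56 for Nop2, −1.24 for Nop58, −1.05 for Npm1 and −1.30 for Ftsj3, with the regulator Myc at −0.89. Protein loading and clearance stood at −0.68 for Hars, −0.99 for Psmd7 and −0.76 for Psmc5, replication and division at −1.01 for Rrm2, −0.91 for Mcm10, −0.79 for Cdk4, −0.74 for Aurka, −0.65 for Ccnb1 and −1.23 for Apex1, and chaperones and their partners at −1.40 for Hspa8, −1.34 for Hspd1, −0.67 for Hspa5, −0.75 for Pdia6, −1.40 for Cacybp, −0.73 for Mzb1 and −0.96 for Derl3. Metabolic genes stood at −1.06 for Fdps, −1.04 for Acat2, −1.16 for Cycs, −0.63 for Atp5a1, −1.07 for Shmt2, −1.32 for Asns and −0.75 for Phgdh. Chemokines stood at −2.90 for Ccl22, −2.90 for Ccl2, −2.62 for Ccl7, −2.06 for Ccl3 and −2.40 for Ccl4. Membrane and marginal zone genes stood at −2.18 for Plac8, −1.88 for Alpl, −1.99 for Cd36, −1.91 for Ms4a4c and −2.05 for Lpar3, and the others at −4.35 for Pcp4, −1.96 for Comtd1, −1.37 for Bzw2, −3.01 for Gm4956, −1.56 for Ighg1, −0.79 for Nr4a1, −1.07 for Bcl2a1d and −2.08 for Timp1.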

How the results depend on the processing

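The count of called interactions, 1510, came to 1135 on deposited TPM, 1224 under quantile normalization, 1343 in the authors' log2 table, 1432 with a pseudocount of 0.1, 1120 with no filter, 1567 with a filter at 5 TPM and 1512 without antibody genes. With all 45 libraries it was 12, against 25 for the LPS effect and 139 for the anti-IgM effect, and with the 35 libraries at or under 10000 TPM of Actb it was 243, 105 and 943. On the 12146 genes of the 44 h fit, an alternative chosen after seeing the data, the counts were 17, 29 and 163 with 45 libraries and 263, 110 and 980 with 35. Without each 44 h library in turn the counts ran from 1042 to 1358 for the interaction, 275 to 459 for the LPS effect and 2103 to 3133 for the anti-IgM effect. The lowest LPS count came without replicate 3 of DL1 with LPS, and again without replicate 3 of OP9 with LPS, each over 1.5 times below 416. The replicate block, a term for a number the labels do not tie to a shared animal or day, gave 1259, 353 and 2686 calls, with Prdm1 newly called (1.12, adjusted p = 0.033) and Ccl7, Igj and P4ha1 lost among named genes, and 4 of 12 libraries deviated most like others of their own number.

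Mgarp, Ak4, Il27 and Gm4956 passed the filter only through the libraries of their high group, so without any of those they were not tested. They had a result in 19 of the 22 alternatives. Over the runs that tested each gene, 85 of the 95 named genes with a called interaction kept it without each library in turn. Ccl7, Cd1d1, Derl3, Ier2, Igj, Klf2, P4ha1, Pgk1 and Pnrc1 lost it without 3 to 10 of the 12 libraries, with adjusted p up to 0.102 in limma, and Ccnb1 without replicate 2 of OP9 with anti-IgM (adjusted p = 0.051). In the authors' log2 table Mgarp, Lpar3, Ak4, Egln3, Il27, Itgb7 and Gm4956 also missed the threshold with their sign kept, and under quantile normalization Atp5a1, Cdk4, Hspa5, Phgdh, Mzb1, Bcl2a1d and Cd74 did. With a pseudocount of 0.1 Ak4, Egln3, Itgb7, Gm4956, Ccl7 and Igj missed it, again with their sign kept. Uncalled values near 0 changed sign: Rbpj to −0.0029 under quantile normalization and −0.036 with a pseudocount of 0.1, Irf4 to −0.038 under quantile normalization, and Ighd to 0.053 on deposited TPM and 0.27 under quantile normalization. The median of ATF4 and mTORC1 targets went to 0.027 on deposited TPM. Without single libraries Notch1 ran from −0.53 to 0.083, Rbpj from −0.086 to 0.29 and Irf4 from −0.061 to 0.16. The cause of these changes was not tested.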

Other observations

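At 68 h the same 4 groups were also cultured, and 9 of those 12 libraries had at most 10000 TPM of Actb (2, 2, 3 and 2 per group). The interaction there is given as values with no call. Its sign was that of 44 h for 65.3% of the 12146 genes, for 82.4% of the 527 above 0 and for 84.2% of the 983 below 0; with all 12 libraries the shares were 63.7%, 67.7% and 83.7%. The median at 68 h over the 9 libraries was 0.51 for the genes above 0 and −0.45 for those below.

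The gene groups did not all keep their place, and several medians depended on the 3 libraries above that level, so each is given for the 9 libraries and then for all 12. Follicular B cell genes had a median of 1.05 at 68 h, with 16 of 16 above 0 in the 9 libraries, and 0.73 with all 12. MHC class II genes stood at 0.75 and at 0.18. Cholesterol synthesis stood at −0.88 and −1.28, DNA replication at −0.72 and −0.83, and proteasome subunits at −0.63 and −0.71. Ribosomal proteins stood at −1.24 in the 9 libraries and at −0.59 with all 12, against −0.62 at 44 h. Mitosis genes, at −0.93 and −1.03, and oxidative phosphorylation, at −0.99 and −1.10, were farther from 0 than at 44 h either way. Ribosome biogenesis, at −0.14 and −0.35, and hypoxia response genes, at 0.09 and 0.13, were nearer 0 either way. For Bnip3 the group means over the 9 libraries at 68 h were 587 scaled TPM on DL1 and 534 on OP9 with LPS, and 35.6 and 33.8 with anti-IgM; at 44 h only DL1 with LPS had been at such a level. Glycolysis, at 0.23 at 44 h, stood at −0.69, with 21 of 23 genes below 0 in the 9 libraries, and at −0.88 with all 12. Plasma cell genes, at 0.16 at 44 h, stood at −0.55 and −0.52. The Igj interaction, 1.35 at 44 h, was −7.40 in the 9 libraries and −6.87 with all 12. Its group means over the 9 libraries were 1.77 scaled TPM on DL1 and 37.4 on OP9 with LPS, and 111 and 9.90 with anti-IgM.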
